A study of Mus musculus with 4 samples.

Results

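The 4 Hox clusters of the mouse lie on chromosomes 6 (Hox-A), 11 (Hox-B), 15 (Hox-C) and 2 (Hox-D), and the genes outside them are not Hox genes. The genes described here are 33 of these non-Hox neighbours, chosen by name for their place beside a cluster: 10 beside Hox-A, 9 beside Hox-B, 9 beside Hox-C and 5 beside Hox-D. RefSeq transcripts named an array probe for 32 of the 33, out of 20257 genes named on the array, and Calcoco2 was named by none. The comparison asks where, along the chromosome, the difference in Hox expression between the embryonic stem (ES) cell lines ended. Parental ES were EB3 mouse ES cells, from which the other lines were derived. Nup98-HoxA9 ES #1 and #9 were clones with a stable Tol2 transposon vector for a FLAG-tagged human leukaemia fusion, in which the FG repeats of the nucleoporin Nup98 are joined to the C-terminal, homeodomain-containing part of HoxA9. HoxA9-Ct ES was a clone with the HoxA9 part alone. All were grown undifferentiated with LIF, each modified line was 1 clone, and 1 one-colour Agilent array was hybridised per line. The clone pair was thus the only replication. At the settings used throughout, every p-value rests on a spread between these 2 clones that is shared by all probes. A gene's own difference between the clones does not enter its p-value there.

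Hox genes encode homeodomain transcription factors, and in ES cells the clusters are largely silent under Polycomb repression. The clusters arose by duplication of 1 ancestral block, and related non-Hox genes came with them. The anterior side of a cluster, next to its low-numbered Hox genes, carries related sets in several clusters: Skap adaptors of immune signalling, Snx sorting nexins, Cbx heterochromatin proteins, Nfe2 family bZIP factors, hnRNP A/B RNA-binding proteins and Copz coatomer subunits. The posterior side, next to the 13th paralogues, carries the Evx homeobox genes at Hox-A and Hox-D.

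Levels are given as log2 of the processed signal divided by the 75th percentile of the same array. Of the 32 measured neighbours, 27 were well above background on all 4 arrays, Evx1 was so on 3, and Jazf1, Nfe2l3, Gpr84 and Evx2 were so on none. The pluripotency markers, Pou5f1 and Nanog among them, were well above background in every line (8 of 8). The log2 of their summed unlogged levels was 9.11 to 9.26. Such sums are to be read between lines and not between marker lists. For 6 primitive endoderm markers the log2 of the summed levels was −0.01 (parental ES), 1.85 (clone #1), 2.16 (clone #9) and −0.99 (HoxA9-Ct ES), with 5, 6, 6 and 3 of the 6 well above background. For 4 fibroblast markers it was 5.23, 5.48, 5.45 and 5.38 in the same order, with 3, 4, 4 and 3 of the 4 well above background, a sum that Vim carries. In clone #9 the fibroblast markers had log2 ratios to parental ES of 1.93 (Col1a1), 2.70 (Col1a2), 1.17 (Thy1) and −0.18 (Vim). In clone #1 these were −0.175, 0.79, 0.30 and 0.23 in the same order. The parental Col1a2 level, −4.26, lay close to the lowest parental signal well above background, −4.28. For 4 trophectoderm markers the log2 of the summed levels was 2.98, 3.48, 3.16 and 2.62, a sum that Tfap2c carries, with 2, 4, 3 and 2 well above background. Their median log2 ratio to parental ES was 1.72 (clone #1) and 0.92 (clone #9). It rests in part on Cdx2 and Elf5, which had dim parental levels of −6.49 and −6.08 and so no measured fold. Eomes had log2 ratios of 0.67 and 0.02 in the clones, and Tfap2c 0.47 and 0.18. The part of all these markers in the values that follow was not tested. In a bulk sample, fewer cells of a type and less RNA per cell cannot be told apart.

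At the settings used throughout, no neighbour was called in any comparison between lines, and of the alternative fits 1 called Skap2 and Itga5 and 1 called Skap2 alone. For the Nup98-HoxA9 clones over parental ES, limma with Benjamini-Hochberg adjustment called 0 of 32 higher, where it called 0.781% of all probes, and 0 of 32 lower, where it called 0.625%. At an unadjusted p under 0.05 there were 1 higher (Skap1) and 2 lower (Nfe2l3 and Evx1). Over all 55562 probes, 1812 were higher and 1664 lower at that level, so these counts do not set the neighbours apart. Inside the clusters the same fit called 22 of 38 Hox genes higher: 9 of 10 in Hox-A, 8 of 10 in Hox-B, 4 of 9 in Hox-C and 1 of 9 in Hox-D. This contrast depends on the fit. Quantile normalization and the restriction to probes above background called no probe of the array and so no Hox gene. At an unadjusted p under 0.05 these fits had 18 of 38 and 23 of 27 tested Hox genes higher. Over all their probes, 2044 of 55562 and 1196 of 30517 were higher at that level. Pooling parental with HoxA9-Ct ES called 6 Hox genes among 9 probes, and the other fits called 14 to 22 Hox genes. The median log2 ratio of the mean of the clones to parental ES was 0.04 over the 32 neighbours, −0.10 over all 20257 named genes and 2.87 over these Hox genes. Most of these Hox genes were dim on at least 1 array, so 2.87 is not a measured size. Over genes well above background on all 4 arrays the median was 0.05 (27 neighbours), −0.04 (12553 named genes) and 1.005 (4 Hox genes). The fit was coarse: its standard error was 0.556, every 95% interval reached 1.09 to either side of its log2 ratio, and the smallest log2 difference it called was 1.89. Differences of the size seen at the neighbours were below what this fit called, while the fits with normexp and with trend and robust, whose prior SD was 0.188 and 0.286 in place of 0.454, called Skap2 at 0.82 and 0.86.

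Counts by fold, with no test, were also 0 of 32 at the 2-fold level, near the low shares over all probes, dim ones included. None of the 32 neighbours was more than 2-fold higher than parental ES in both clones, against 1.88% of all probes, and none was more than 2-fold lower in both, against 2.09%. At 1.5-fold, 3 of the 27 neighbours well above background on all arrays were higher in both clones, Skap2, Smug1 and Nfe2, against 4.74% of such genes. With levels centred per chromosome (each less the median level of its chromosome on that array), 1 was left (Skap2). This setting was chosen after seeing the data. Chromosome 15, which holds Smug1 and Nfe2, had a median log2 ratio of 0.40 in clone #9. None of the 27 was 1.5-fold lower in both, against 2.77%. Itga5 lay just under this limit in clone #1, with a log2 ratio of 0.57.

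**Figure D1:**
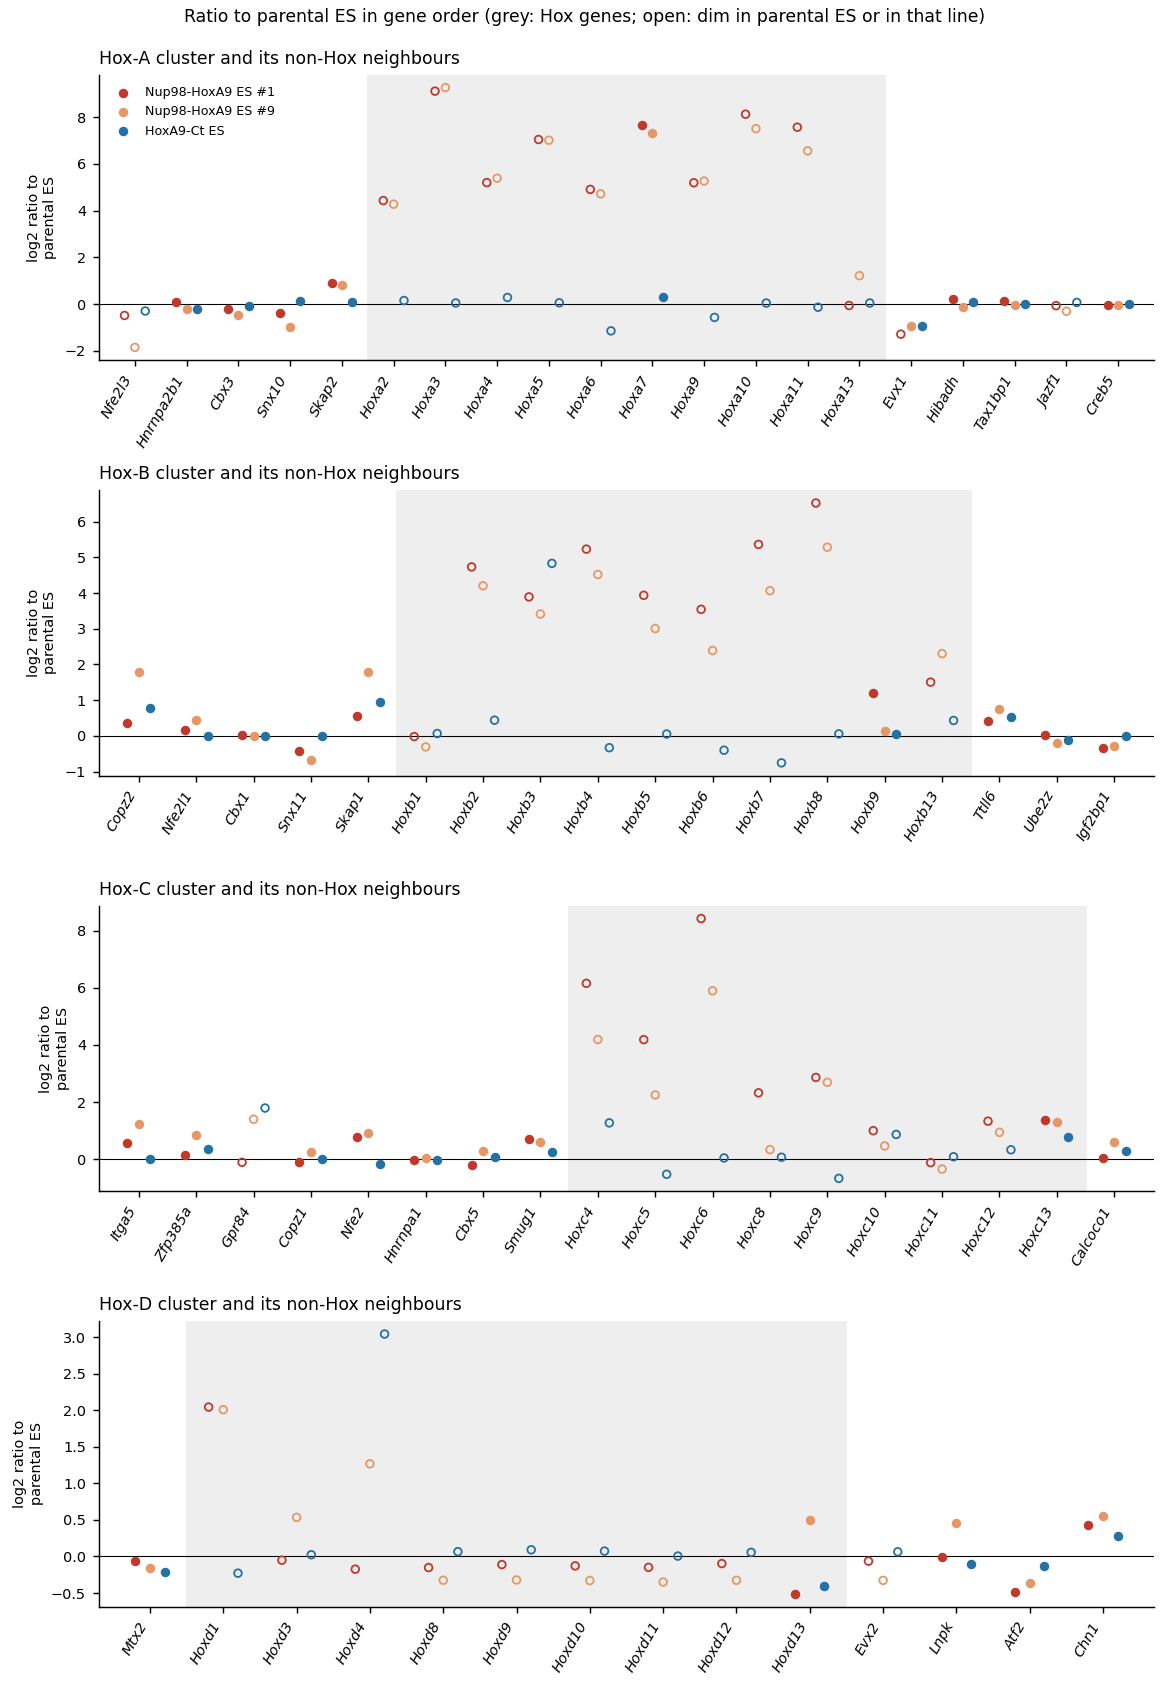
Log2 ratio to parental ES (vertical axis) of 38 Hox genes and the 32 measured neighbours in gene order, anterior side on the left, for Nup98-HoxA9 ES #1, #9 and HoxA9-Ct ES, 1 array per line; open points are not well above background in parental ES or in that line. In Hox-A the ratios of the clones are 4.43 and 4.28 at Hoxa2, against a dim parental signal, and 0.89 and 0.83 at Skap2, outside the cluster.

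The promoters of 3 neighbours next to a Hox cluster are shown, chosen after their values were seen: Skap2 on the anterior side of Hox-A and Smug1 beside Hoxc4, which were 1.5-fold higher in both clones, and Evx1 beside Hoxa13, which was lower. Each window is 300 bases, 250 before the start of the gene to 50 after, taken from RefSeq on GRCm38.p6 and written 5′ to 3′ on the strand of the gene. Capitals mark the letters TGATTTA, the core of sites bound by HOX with PBX cofactors, or TTTATG, a core bound by posterior HOX proteins such as HOXA9, on either strand (TAAATCA and CATAAA on the other).
Skap2 (chr6:52012500-52012799, minus strand): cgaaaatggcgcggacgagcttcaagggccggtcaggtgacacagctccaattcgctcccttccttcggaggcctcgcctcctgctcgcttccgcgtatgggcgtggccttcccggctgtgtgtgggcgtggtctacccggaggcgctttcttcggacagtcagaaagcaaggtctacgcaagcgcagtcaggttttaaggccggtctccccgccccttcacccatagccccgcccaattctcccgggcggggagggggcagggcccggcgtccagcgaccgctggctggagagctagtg
Smug1 (chr15:103163235-103163534, minus strand): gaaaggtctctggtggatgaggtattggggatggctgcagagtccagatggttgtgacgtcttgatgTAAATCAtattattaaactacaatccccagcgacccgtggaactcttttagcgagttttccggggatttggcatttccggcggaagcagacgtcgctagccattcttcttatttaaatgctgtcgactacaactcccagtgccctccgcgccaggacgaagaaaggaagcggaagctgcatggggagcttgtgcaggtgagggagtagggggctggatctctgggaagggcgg
Evx1 (chr6:52313248-52313547, plus strand): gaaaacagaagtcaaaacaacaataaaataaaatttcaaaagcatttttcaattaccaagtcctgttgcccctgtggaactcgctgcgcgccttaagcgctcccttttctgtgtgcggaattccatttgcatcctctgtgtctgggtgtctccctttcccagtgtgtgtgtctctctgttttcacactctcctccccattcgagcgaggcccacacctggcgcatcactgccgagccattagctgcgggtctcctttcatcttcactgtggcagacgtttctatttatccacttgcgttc
Only the Smug1 window of these 3 holds either core, with 1 TGATTTA on the opposite strand. Windows were found for 29 of the 33 neighbours, 43 windows in all; Calcoco2, Igf2bp1, Nfe2 and Skap1 had none. TGATTTA lies in 4.65% of these windows (those of Smug1 and 1 of Creb5) and in 2.97% of all 32851 mouse windows. TTTATG lies in 2.33% of them (Ube2z) and in 11.8% of all windows. The neighbours' windows held a median of 60.7% G and C and 20 CG pairs, against 52.7% and 7 over all windows, and the Skap2 window held 66% and 28. These matches are a description of letters and not of binding.

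Toward the anterior side of Hox-A, Hoxa2 was higher in both clones, by at least 4.57-fold, with log2 levels of −6.44 (parental ES), −2.01 (clone #1), −2.16 (clone #9) and −6.29 (HoxA9-Ct ES) (limma adjusted p = 5.23e-12). Skap2, an adaptor protein of Src-family kinase signalling in blood cells, is the nearest protein-coding gene outside the cluster on this side. Its log2 levels were 3.63, 4.52, 4.46 and 3.70 in the same order. Both clones lay above both other lines, and the clones differed from each other by 0.06 on the log2 scale, where 95% of probes of like level differed by less than 0.49. The mean of the clones was 1.82-fold of parental ES, a log2 ratio of 0.86 with a 95% interval of −0.23 to 1.95 (limma adjusted p = 1.00), and HoxA9-Ct ES was 1.05-fold. Under normexp background correction the adjusted p was 0.0316, and with eBayes trend and robust on it was 0.00912, the lowest of 11 fits. These 2 fits called Skap2, while 2 of the others called no probe at all and 1 called only 9 probes.

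The next neighbour, Snx10, a sorting nexin of endosomal and osteoclast function, had log2 levels of 2.21 (parental ES), 1.81 (clone #1), 1.25 (clone #9) and 2.33 (HoxA9-Ct ES). Both clones lay below both other lines, with log2 ratios of −0.40 and −0.96. A second Snx10 probe gave −0.65 and −1.01. Cbx3, which encodes the heterochromatin protein HP1γ, had log2 ratios of −0.22 and −0.46 in the clones and −0.09 in HoxA9-Ct ES. Hnrnpa2b1, an RNA-binding protein gene, had 0.11 and −0.23, on either side of parental ES. Nfe2l3, a bZIP transcription factor gene, was not well above background on any array, so no fold is given for it.

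On the posterior side of Hox-A, Hoxa11 was higher in the clones by at least 40.0-fold, with log2 levels of −6.02 in parental ES, 1.55 in clone #1 and 0.54 in clone #9 (limma adjusted p = 5.44e-33), while Hoxa13, the last gene, was not well above background on any array. Hoxa11 was the most posterior Hox-A gene called. Evx1, a homeobox gene of the primitive streak and spinal cord, is the next protein-coding gene. Its log2 levels were −2.89 (parental ES), −4.18 (clone #1), −3.83 (clone #9) and −3.85 (HoxA9-Ct ES), and the clone #1 signal was not well above background. Parental ES was the highest of the 4, and the HoxA9-Ct ES level lay within 0.02 of that of clone #9. The log2 ratio of the mean of the clones was −1.11 (limma unadjusted p = 0.0451, adjusted p = 0.751). It was −0.30 under normexp (unadjusted p = 0.199) and −0.64 with parental and HoxA9-Ct ES pooled (unadjusted p = 0.162). Its spot sits in the final eighth of the array's rows. Further out, Hibadh, a mitochondrial enzyme of valine breakdown, had log2 ratios of 0.21 and −0.11 in the clones. Tax1bp1, an autophagy receptor, had 0.13 and −0.04, and the bZIP factor gene Creb5 had −0.02 and −0.05. These 3 genes stayed within 0.21 of parental ES in every line. Jazf1, a zinc finger gene, was not well above background on any array.

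**Figure D2:**
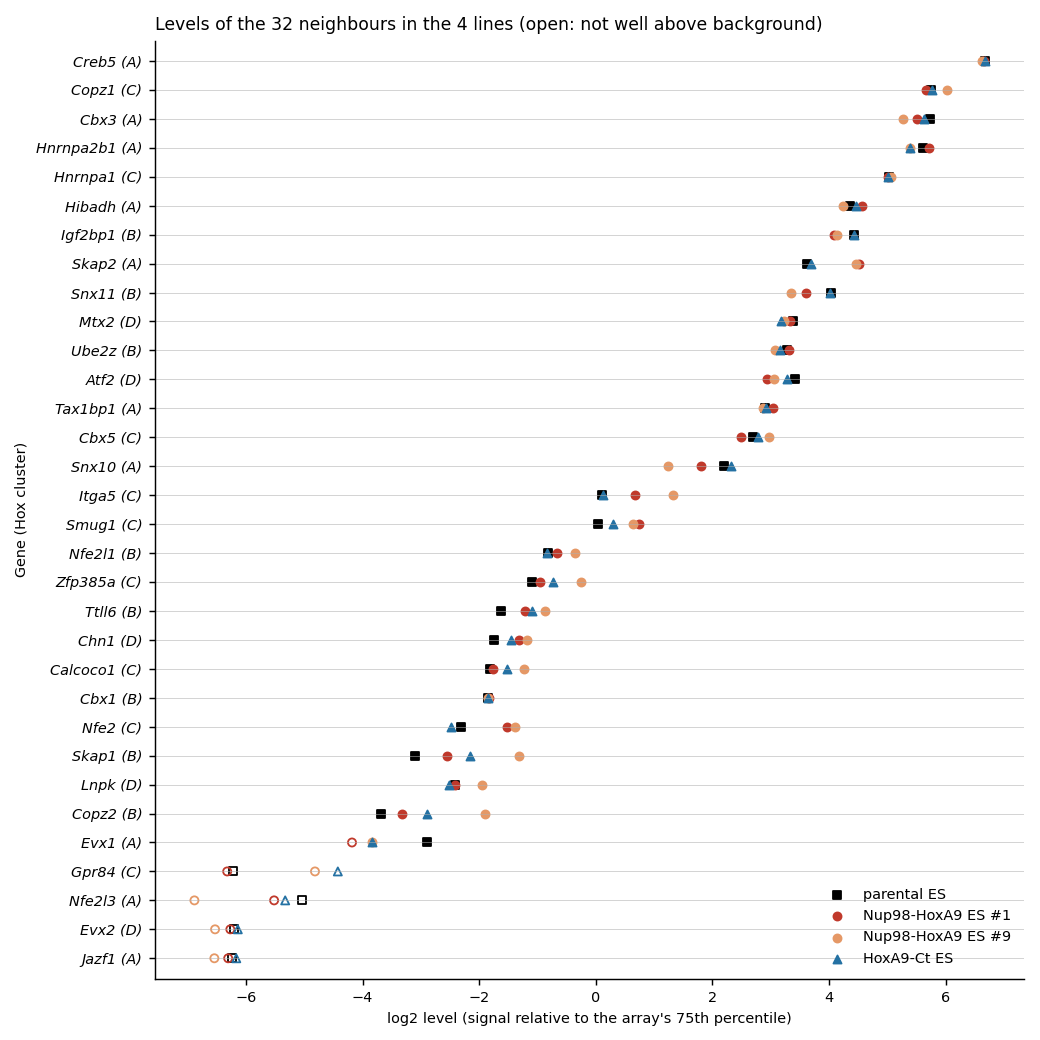
Log2 level (horizontal axis, signal relative to the 75th percentile of the array) of the 32 measured neighbours in parental ES, both Nup98-HoxA9 ES clones and HoxA9-Ct ES, 1 array each; open symbols are not well above background. Levels of different probes are not comparable, so the points are to be read along each row: at Skap2 (3.63, 4.52, 4.46, 3.70) the clones sit together above the other lines, and at Copz2 the lines spread from −3.68 to −1.90.

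At the anterior edge of Hox-B, Hoxb1 was not well above background on any array and Hoxb2 was higher in both clones, by at least 5.49-fold, with log2 levels of −6.29 in parental ES and −1.56 and −2.08 in the clones (limma adjusted p = 1.11e-12). Skap1, the T-cell paralogue of Skap2, lies just outside. Its log2 levels were −3.10 (parental ES), −2.55 (clone #1), −1.32 (clone #9) and −2.15 (HoxA9-Ct ES). All 3 modified lines lay above parental ES, and HoxA9-Ct ES lay between the clones. The log2 ratio of the mean of the clones was 1.16 (limma unadjusted p = 0.0371, adjusted p = 0.672). The clones differed by 1.23, more than the 1.16 that 95% of probes of like level stayed under. Over 11 settings the mean of the clones ranged from 0.45 to 1.22, with no adjusted p below 0.105.

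Copz2, a coatomer subunit gene that hosts a microRNA, showed the same order of lines. Its log2 levels were −3.68 (parental ES), −3.32 (clone #1), −1.90 (clone #9) and −2.89 (HoxA9-Ct ES) (limma adjusted p = 0.836), and its clones differed by 1.42 against 1.1 for 95% of probes of like level. Over 11 settings its mean of the clones ranged from 0.37 to 1.17. Between Skap1 and Copz2 lie 3 neighbours. Snx11, the sorting nexin paralogue of Snx10, had log2 ratios of −0.42 and −0.69 in the clones and −0.01 in HoxA9-Ct ES, and its other probes gave −0.53 and −0.60, and −0.15 and −0.36. Cbx1, the gene of HP1β, had 0.02 and 0.00. Nfe2l1, a regulator of proteasome genes, had 0.16 and 0.45. Neighbours on this side thus lay on both sides of parental ES, and the highest ratios were at the nearest and at the farthest of the 5.

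On the posterior side of Hox-B, Hoxb13 was higher in both clones by at least 2.65-fold (log2 levels −4.77 in parental ES, −3.27 and −2.47 in the clones, limma adjusted p = 0.0462), and Hoxb9 had log2 ratios of 1.20 and 0.14. Ttll6, a tubulin polyglutamylase gene and the nearest neighbour, had log2 ratios of 0.41 and 0.76 in the clones and 0.52 in HoxA9-Ct ES, so that the HoxA9-Ct line lay between them. Ube2z, a ubiquitin-conjugating enzyme gene, had 0.03 and −0.20. Igf2bp1, an mRNA-binding protein gene of embryonic cells, had −0.34 and −0.29, with 0.01 in HoxA9-Ct ES.

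Beside Hox-C, the values of clone #9 have to be read against its whole chromosome. Over the 637 chromosome 15 probes that were well above background on every array, the median log2 ratio to parental ES was 0.40 in clone #9, against 0.02 in clone #1 and 0.03 in the HoxA9-Ct line, while in clone #9 it was −0.08 on chromosome 6, −0.08 on chromosome 11 and −0.09 on chromosome 2. All 8 neighbours of Hox-C well above background lay above parental ES in clone #9, with a median log2 ratio of 0.60, and 5 of 8 did in clone #1, with a median of 0.09. Less the median of the chromosome, the medians were 0.20 in clone #9 (5 of 8 above 0) and 0.08 in clone #1.

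Hoxc4, the anterior end of Hox-C, was higher in both clones, by at least 32.9-fold, with log2 levels of −4.41 (parental ES), 1.75 (clone #1), −0.22 (clone #9) and −3.14 (HoxA9-Ct ES) (limma adjusted p = 2.42e-17). Smug1, a uracil-DNA glycosylase of base excision repair, is the next protein-coding gene. Its log2 levels were 0.04, 0.73, 0.64 and 0.30 in the same order, with both clones above both other lines and the clones 0.09 apart. The mean of the clones was 1.57-fold of parental ES (limma adjusted p = 1.00). Less the chromosome median, its log2 ratio was 0.68 in clone #1 and 0.20 in clone #9, and over 11 settings the mean of the clones ranged from 0.39 to 0.72.

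Further out on this side, Cbx5, the gene of HP1α, had log2 ratios of −0.22 and 0.28, and its other probe −0.28 and 0.33. Hnrnpa1, which encodes a splicing regulator, had −0.02 and 0.03. Nfe2, an erythroid and megakaryocyte bZIP factor gene, had log2 levels of −2.31 (parental ES), −1.52 (clone #1), −1.38 (clone #9) and −2.48 (HoxA9-Ct ES). Both clones lay above both other lines, at a mean of 1.81-fold of parental ES (limma adjusted p = 1.00). Less the chromosome median its log2 ratios were 0.77 and 0.53, and over 11 settings the mean of the clones ranged from 0.48 to 0.94. Hnrnpa1 and Copz1, on either side of it, lay closer to parental ES. Copz1, the broadly expressed coatomer paralogue of Copz2, had −0.09 and 0.26. Zfp385a, a zinc finger gene, had 0.14 and 0.83. Itga5, the α5 subunit of the fibronectin receptor, had log2 levels of 0.11, 0.67, 1.32 and 0.12, with both clones above both other lines but 0.65 apart. Its mean was 1.86-fold of parental ES (limma adjusted p = 1.00, and 0.0245 under normexp, the lowest of 11 fits). Less the chromosome median its log2 ratios were 0.55 and 0.82. Gpr84, a receptor of myeloid cells, was not well above background on any array. At the posterior end, Hoxc13 had log2 ratios of 1.37 and 1.30 in the clones and 0.79 in HoxA9-Ct ES (limma adjusted p = 0.413 for the clones), and Calcoco1, a coactivator and autophagy gene, had 0.05, 0.60 and 0.30.

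**Figure D3:**
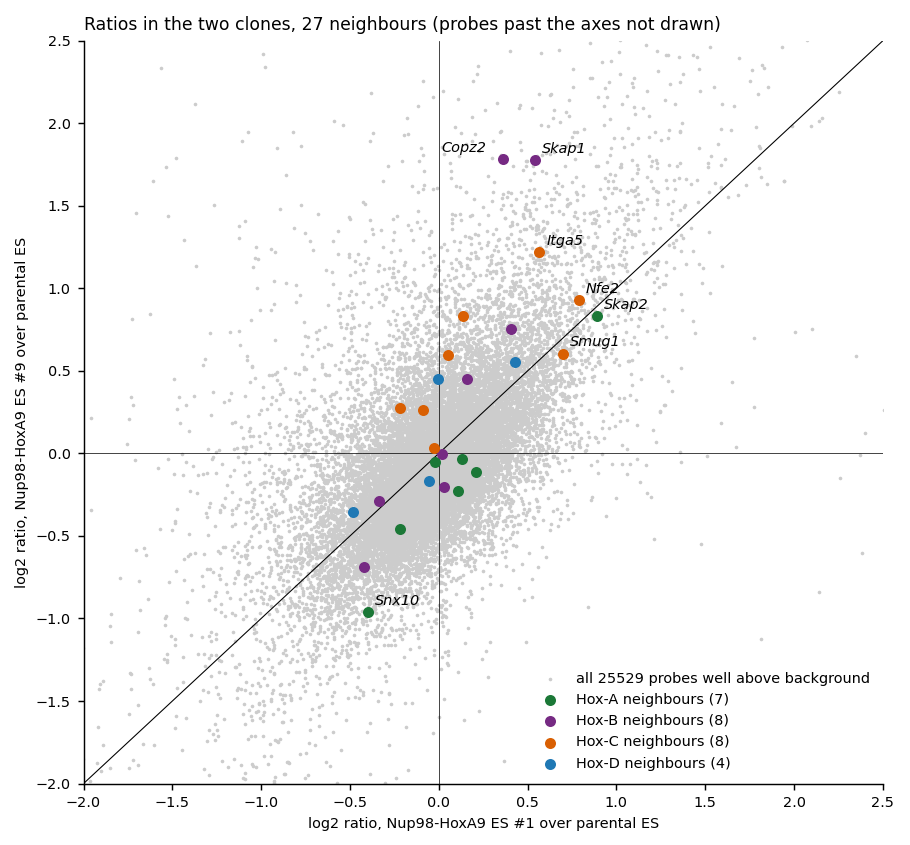
Log2 ratio to parental ES in Nup98-HoxA9 ES #1 (horizontal) and #9 (vertical) for the 27 neighbours well above background on all 4 arrays, coloured by cluster, over all 25529 such probes in grey; the line marks equal ratios and all points share the parental array. Skap2 (0.89, 0.83), Smug1 (0.70, 0.60) and Nfe2 (0.79, 0.93) lie near the line, and Skap1 and Copz2 (both 1.78 in clone #9) far above it.

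Hox-D was the cluster with the fewest called Hox genes. Hoxd1, its anterior end, was higher in both clones, by at least 1.17-fold, with log2 levels of −6.08 in parental ES and −4.03 and −4.07 in the clones (limma adjusted p = 0.0243). Mtx2, a mitochondrial outer membrane import gene, is the neighbour of Hoxd1 and had log2 levels of 3.39 (parental ES), 3.33 (clone #1), 3.23 (clone #9) and 3.17 (HoxA9-Ct ES), parental ES being the highest. On the posterior side Hoxd12 was not well above background on any array and Hoxd13 had log2 ratios of −0.51 and 0.49 in the clones. Evx2, the paralogue of Evx1 next to Hoxd13, was not well above background on any array. Lnpk, an endoplasmic reticulum junction gene, had −0.01 and 0.45. Atf2, a stress-responsive bZIP gene, had −0.48 and −0.36 at its brightest probe, but its 4 probes disagreed, with means of the clones from −0.42 to 0.20. Chn1, which encodes a Rac GTPase-activating protein of axon guidance, had 0.43 and 0.55, with 0.29 in HoxA9-Ct ES, and its other probe 0.26 and 0.48.

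By family, the related genes beside different clusters were alike in some sets and not in others. Of the Skap pair, Skap2 was alike in the clones and near parental ES in HoxA9-Ct ES (0.07), whereas Skap1 was unlike between the clones and had 0.94 in HoxA9-Ct ES. Both sorting nexins, Snx10 and Snx11, lay below parental ES in both clones at their brightest probes, with log2 ratios of 0.12 and −0.01 in HoxA9-Ct ES. The 3 HP1 genes Cbx1, Cbx3 and Cbx5 had means of the clones between −0.34 and 0.03. Of the Nfe2 family, Nfe2 had 0.86, Nfe2l1 0.31 and Nfe2l3 was dim. The difference between members of a family was not tested.

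Against HoxA9-Ct ES, limma called 0 of 32 neighbours higher in the Nup98-HoxA9 clones (0.673% of all probes) and 0 of 32 lower (0.688%). At an unadjusted p under 0.05 there were 0 and 1 (Gpr84, dim), against 1529 and 2108 of all 55562 probes. For HoxA9-Ct ES over parental ES limma called 0 of 32 higher (0.216% of all probes) and 0 of 32 lower (0.189%). Unadjusted there were 1 (Gpr84) and 0, against 1172 and 779 of all probes. By fold, 1 of 32 neighbours was more than 2-fold above parental ES in the HoxA9-Ct line, again Gpr84 with signals not well above background, against 3.64% of all probes, and none was more than 2-fold lower, against 2.43%. The median log2 ratio of the 32 neighbours in HoxA9-Ct ES was 0.02. These comparisons share arrays with the first.

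Besides the described neighbours, 123 other named genes were measured among the 20 nearest with a probe on each side of a cluster. Many lay further out, but some lay between the described neighbours or nearer to the cluster (Gm11529 at Hox-B and Evx1os at Hox-A). The comparison is thus not strictly of near with far genes. Their median log2 ratio of the mean of the clones was −0.06, against 0.04 for the neighbours described here. Of the 123, 0 exceeded parental ES by over 2-fold in both clones and 5 lay over 2-fold below it, 1 of them (Sp7) by clone signals that were not well above background. Over all probes the shares were 1.88% higher and 2.09% lower. Of the 93 well above background on all arrays, 1 was 1.5-fold higher and 8 were 1.5-fold lower in both clones, where the 27 neighbours had 3 and 0. Over all such genes the shares were 4.74% and 2.77%. With levels centred per chromosome these counts were 2 and 8 against 1 and 0. This difference was not tested.

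**Figure D4:**
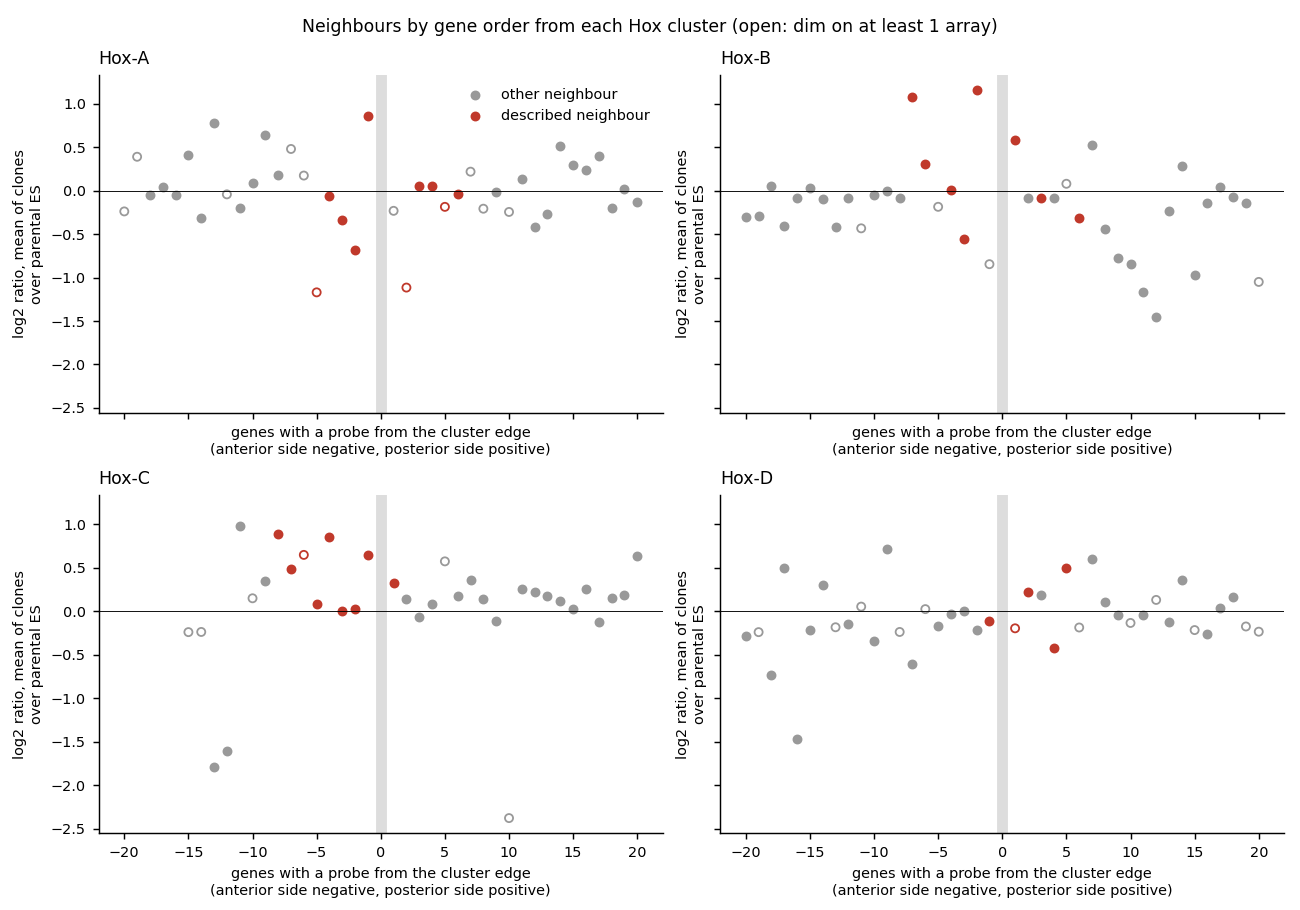
Log2 ratio of the mean of the Nup98-HoxA9 clones to parental ES (vertical axis) against the number of genes with a probe from the edge of each cluster (horizontal axis, anterior side negative), for the neighbours described here and 123 others; open points were dim on at least 1 array. No point outside the clusters exceeds Skap1 at 1.16, and the lowest, an open point, is a gene 10 from the posterior edge of Hox-C at −2.38.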

How the data were processed

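Labelled RNA of 4 ES lines was hybridised to one-colour Agilent mouse arrays, all on 1 slide and from 1 scan, so no batch term was possible. The authors extracted the images with Feature Extraction 10.10.1.1. The deposited spot intensities are background-subtracted and detrended, with no scaling between arrays. The deposited series matrix equals each array times a constant (3.30, 3.49, 3.19 and 3.63), chosen in a way not given in the sources used here.

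Here each processed signal was divided by the 75th percentile of its array, on the log2 scale (229, 222, 253 and 209), without control and outlier spots, and 49.9% to 53.0% of an array's spots rose well above background. A fold against a dim line is a lower bound against the lowest signal well above background or the dim probe's own, whichever is higher. The array annotation uses mm9. RefSeq names and gene order came from GRCm38.p6. The 55562 probes were fitted with limma 3.58.1 in R 4.3.3 (3 groups, 1 residual degree of freedom, infinite prior degrees of freedom), tested on simulated data. All other steps used Python with pandas 2.3.3. Each gene was read at its brightest probe; 10 members have more than 1. Named are all members, Hox genes at the cluster ends, and other nearby genes called or past 2-fold in both clones. Nearby was to mean 1 Mb, but the files gave no probe positions, so the 20 nearest genes per side were taken. normexp used the median spot pixel, offset 50. The members, lists and tests were chosen with earlier results of these data known. Alternatives covered background, scaling, dim signals, probe choice, thresholds, reference, variance model and left-out clones. The results of 1 Hox gene are not reported here.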

Additional observations from a re-analysis of the deposited data

How the results depend on the processing

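No paired analysis was possible, since no label pairs a Nup98-HoxA9 clone with an array of another line. With 1 clone left out, limma had no residual degree of freedom, so its counts have no value there. The 4 arrays limit precision, and dim genes have no measured fold. Called higher over parental ES were 2 neighbours under normexp (Skap2 and Itga5) and 1 with trend and robust (Skap2), which was also the 1 called over HoxA9-Ct ES with trend and robust. Skap2 kept its direction in all 11 settings, with log2 ratios of 0.82 to 0.94. The count more than 2-fold higher in both clones became 3 at 1.5-fold. Centred per chromosome it was 1 at 1.5-fold (Skap2, a setting chosen after seeing the data). With 1 clone left out it ranged from 0 to 4 (without clone #1: Skap1, Copz2, Gpr84 and Itga5). The count more than 2-fold lower became 1 with the median of each array and 1 at 1.5-fold with or without centring per chromosome (Evx1). With either clone left out it was also 1 (Nfe2l3 without clone #1, Evx1 without clone #9). In HoxA9-Ct ES, the 1 neighbour more than 2-fold higher became 0 under normexp, with dim signals at the floor and with only probes above background, and the count more than 2-fold lower became 1 (Evx1) under quantile normalization and the median of each array. The median log2 ratio of the neighbours, 0.0389, was 0.0869 under quantile normalization, 0.0157 with the array median, 0.0188 with the floor, 0.0484 with only probes above background, 0.1038 in the authors' matrix, 0.0339 centred per chromosome, and 0.0072 to 0.0142 with 1 clone left out. Where no cause is named, the cause was not tested.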

Other observations

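Further out than the neighbours of the report, 4 genes were more than 2-fold lower than parental ES in both Nup98-HoxA9 clones on measured signals, and a further gene, Sp7, on dim clone signals. Beside Hox-C on the anterior side, Ppp1r1a, an inhibitor subunit of protein phosphatase 1, had log2 levels of −1.71 (parental ES), −3.43 (clone #1), −3.56 (clone #9) and −1.12 (HoxA9-Ct ES) (limma adjusted p = 0.0772). Pde1b, a calcium-dependent phosphodiesterase gene and the gene before it in order, had 1.47, −0.22, −0.05 and 1.93 (limma adjusted p = 0.169). At both genes the clones lay below both other lines and HoxA9-Ct ES was the highest. Ttn, the titin gene beyond the anterior side of Hox-D, had −0.85, −2.48, −2.15 and −0.85 (limma adjusted p = 0.278). B130006D01Rik, beyond the posterior side of Hox-B, had −2.34, −3.60, −3.98 and −2.97 (limma adjusted p = 0.291). Sp7, a bone-cell transcription factor gene beyond the posterior side of Hox-C, was well above background in parental ES only, at −3.82, and was at least 1.62-fold lower in the clones, whose own signals were −6.47 and −5.94 (limma adjusted p = 0.00277). Sp7 was the only one of the 123 other nearby genes that limma called, where it called 0.625% of all probes lower.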
